A study of Homo sapiens with 4 samples.

Results

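Described here are 10 genes that encode enzymes of serine, glycine, asparagine, proline and one-carbon metabolism and that are known targets of the stress transcription factor ATF4: PHGDH, PSAT1, PSPH, SHMT2, MTHFD2, ALDH1L2, ALDH18A1, PYCR1, PCK2 and ASNS. They were found by symbol in a table of read counts, and all 10 of 10 symbols had a row among 42169 gene rows. The counts come from total RNA of Huh7, a cell line from a human liver tumour. The DKO group is clone 18, labelled as lacking Brf1 and TTP, and the ctrl group is clone 1, labelled WT. Each clone gave 2 libraries, numbered 1 and 2. All cells of both groups received DMSO for 3 h and then 5 µg/ml actinomycin D, which blocks transcription, for 10 min before harvest. Each genotype is represented by 1 clone, so that clone and genotype cannot be told apart, and nothing in the labels tells if the 2 libraries were grown as separate cultures. The p-values therefore describe how far these libraries scatter, and that scatter may be technical.

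Serine is made from a glycolytic intermediate in the cytosol, and its carbon is then passed to folate in the mitochondria, which supplies formate for nucleotide synthesis. Proline and asparagine are made from glutamate and aspartate in separate branches. When amino acids run short or proteins misfold, phosphorylation of the translation factor eIF2 favours the translation of ATF4, which raises transcription of the genes of these enzymes. GADD34, encoded by PPP1R15A, reverses that phosphorylation, and TTP and BRF1 are proteins that bind AU-rich elements of mRNAs and speed their decay. The medium contained added glutamine and a supplement of non-essential amino acids, a class to which serine, asparagine and proline belong.

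Counts on genes totalled 10271428 and 16430228 in the DKO libraries and 9685798 and 12507263 in the ctrl libraries, and levels are given as CPM, counts scaled to a total of 1000000 per library. The limit that a count of 0 allows, 3 counts, was 0.292 and 0.183 CPM in DKO and 0.310 and 0.240 CPM in ctrl. The mRNA levels of the targeted genes do not check the genotype, because the sources used here do not give the kind of mutation. ZFP36, which encodes TTP, had 37.5 and 36.2 CPM in DKO and 30.0 and 23.3 CPM in ctrl (log2 fold change 0.48, edgeR adjusted p = 0.207). ZFP36L1, which encodes BRF1, had 147 and 118 CPM in DKO and 135 and 109 CPM in ctrl (0.13, edgeR adjusted p = 0.775). All 14 hepatocyte and hepatoma markers were detected at a mean of at least 1 CPM, with sums of 29656 and 26195 CPM in DKO and 28047 and 27235 CPM in ctrl. Of the 14, 4 had an edgeR adjusted p under 0.05 between the clones, against 5.37% of all tested genes. AHSG (log2 fold change 1.74, edgeR adjusted p = 1.61e-04), APOH (1.16, edgeR adjusted p = 0.00360) and TTR (0.78, edgeR adjusted p = 0.0297) were higher in DKO and AFP (-1.13, edgeR adjusted p = 0.0159) was lower. None of 5 leukocyte and 4 endothelial markers reached a mean of 1 CPM over the 4 libraries, and the leukocyte markers summed to 1.17 and 1.16 CPM in DKO and 0.516 and 0.640 CPM in ctrl. CD3E, CDH5, VWF and KDR were at 0 in all 4 libraries. The 5 fibroblast and stellate markers, which tumour cells can also express, summed to 40.8 and 34.1 CPM in DKO and 28.3 and 32.9 CPM in ctrl, and the part of these markers in the results was not tested.

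The stretch before the start of ASNS is shown because it holds the element through which ATF4 is known to act on that gene. The motif searched was TGATGNAA, the core of the C/EBP-ATF response element, on both strands of the RefSeq windows of 300 bases around transcript starts (GRCh38.p14). A window was found for 6 of the 10 genes, in 7 windows, and 1 of the 7 held the motif, against 3.62% of 35116 windows of all genes. The 250 bases before the more upstream ASNS start (chr7:97872409-97872658, minus strand) are printed 5′ to 3′ with the motif in capitals.
ASNS: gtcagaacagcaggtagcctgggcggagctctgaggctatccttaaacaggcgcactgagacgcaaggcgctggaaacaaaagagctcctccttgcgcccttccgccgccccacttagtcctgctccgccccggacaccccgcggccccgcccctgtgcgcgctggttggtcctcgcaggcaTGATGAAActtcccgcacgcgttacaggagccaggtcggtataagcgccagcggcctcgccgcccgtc
The motif lies 68 to 61 bases before that start, at chr7:97872469-97872476. The windows of PHGDH, PSAT1, MTHFD2, ALDH18A1 and PCK2 and the other ASNS window held no such letters, which says nothing on elements elsewhere in these genes.

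The element that TTP and BRF1 bind was searched as TATTTAT (U for T in the RNA, sense strand only) in the longest annotated 3′ UTR of each gene, because the clones differ in these proteins. It was found in 2 of 10 enzymes, MTHFD2 and ALDH18A1, with 1 match each, against 36.1% of 11900 tested protein-coding genes. The median length searched was 989 bases in the enzymes and 1663 bases in all of those genes. The matches are printed with the motif in capitals, and the values of both genes follow in their own paragraphs.
MTHFD2: atgatgccttgTATTTATtgaaagcttaa
ALDH18A1: ttgaccttttgTATTTATttgtggggtaa
The MTHFD2 stretch is chr2:74214349-74214377 on the plus strand, with the match starting 118 bases after the stop codon, and the ALDH18A1 stretch is chr10:95606210-95606238 on the minus strand, with the match starting 535 bases after the stop codon (hg38).

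None of the enzymes passed the test in either direction between the clones. Of the 10 genes, 9 passed the filter on low counts and 0 of these 9 passed the threshold (edgeR quasi-likelihood test, Benjamini-Hochberg adjusted p under 0.05 over 13359 genes), where 5.37% of all tested genes did. Of all tested genes, 299 (2.24%) were higher and 419 (3.14%) lower in DKO. DESeq2 and limma-voom called 0 of the enzymes as well. At an unadjusted p under 0.05 edgeR marked 1 of the 9, PSAT1, against 20.2% of all tested genes. Of the 9 log2 fold changes 5 were positive and 4 negative, between -0.39 and 0.42, with a median of 0.03 beside 0.00 for all tested genes. Both DKO libraries lay outside both ctrl libraries for 3 of the 9, PSAT1, SHMT2 and ALDH18A1, against 49.9% of all tested genes. When the ERCC spike-in totals served as library sizes, the median of all genes was -0.68 and that of the enzymes -0.66, and all 9 values were negative, so directions here are relative to the median gene. With those totals 22 genes were higher and 307 lower in DKO, and 0 of the 9 enzymes passed. The number of libraries limits what could be seen: the median standard error (SE) of the 9 values was 0.20 log2 units.

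**Figure D1:**
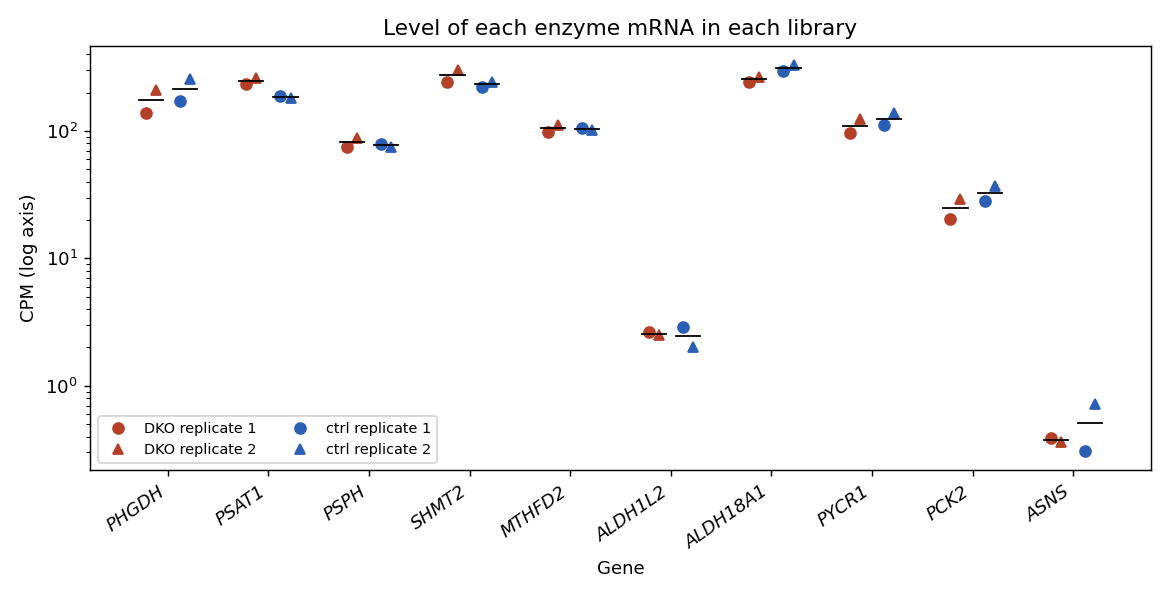
CPM of each enzyme mRNA in each of the 4 libraries, on a log axis, with DKO (red) left of ctrl (blue), circles for replicate 1, triangles for replicate 2 and a line for the mean of the group. The DKO points lie above both ctrl points for PSAT1 and SHMT2 and below both for ALDH18A1, and ALDH1L2 (2.00 to 2.89 CPM) and ASNS (0.310 to 0.720 CPM) lie far below the others.

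ASNS encodes asparagine synthetase, which makes asparagine from aspartate and glutamine, and its count is not read here as its level. It had 4 and 6 counts in the DKO libraries and 3 and 9 counts in the ctrl libraries, or 0.389 and 0.365 CPM in DKO and 0.310 and 0.720 CPM in ctrl. The 95% Clopper-Pearson intervals, which cover counting error only, were 0.106 to 0.997 and 0.134 to 0.795 CPM in DKO and 0.0639 to 0.905 and 0.329 to 1.37 CPM in ctrl. All 4 intervals overlapped, the gene did not pass the filter, and no fold change is given. In GENCODE release 29, AC079781.5 (chromosome 7, 97851688 to 97972985, hg38), a transcript annotated on the same strand, shares 1683 of the 1752 coding bases of ASNS (96.1%; chromosome 7, 97852118 to 97872542). AC079781.5 has its own row in the table, with 6 and 9 counts in DKO and 4 and 6 counts in ctrl. A read on shared bases belongs to both genes, and featureCounts discards such reads unless told otherwise. The sources used here do not give the setting that was chosen. At least 95% of the coding bases were shared in this way in 587 protein-coding genes of the table. Of these, 79.4% had under 10 counts in every library, against 35.1% of 18869 other protein-coding genes. The comparison does not separate sharing from other traits of these genes. Whether shared bases lowered the count of ASNS was not tested. Of the other 9 enzymes none shared a coding base with a gene of the same strand. PYCR1 shared 408 exonic bases outside its coding sequence on that strand, 14.1% of its exonic bases.

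Of the 3 enzymes that make serine none passed. PHGDH, phosphoglycerate dehydrogenase, takes the first step (chromosome 1, 119648411 to 119744226), and had 138 and 211 CPM in DKO and 170.4 and 254 CPM in ctrl. Its clones overlapped, and in both clones library 2 was the higher one, by 0.61 log2 units in DKO and 0.57 in ctrl. The log2 fold change was -0.27 (SE 0.25, 95% interval -0.80 to 0.26, edgeR adjusted p = 0.585), and it was 0.08 without ctrl replicate 2 and -0.63 without DKO replicate 2.

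PSAT1, phosphoserine aminotransferase, takes the next step (chromosome 9, 78297143 to 78330093). It had 234 and 259.8 CPM in DKO and 189.7 and 182 CPM in ctrl, with both DKO libraries above both ctrl libraries. The mean was 247 ± 18.4 CPM in DKO and 186 ± 5.38 CPM in ctrl (SD, n = 2 each), a 1.33-fold ratio. On the log2 scale the difference was 0.42 (SE 0.19, 95% interval 0.02 to 0.83, edgeR adjusted p = 0.227). With trends over GC content and length removed it was 0.21 (edgeR adjusted p = 0.332). A fit with the replicate number as a block, in which 30.1% of all tested genes passed, called PSAT1 higher and PCK2 lower, but the labels do not pair the libraries. PSPH, phosphoserine phosphatase, which releases serine (chromosome 7, 56011051 to 56051604), had 75.3 and 87.5 CPM in DKO and 79.3 and 74.8 CPM in ctrl. The libraries overlapped, and the log2 fold change of 0.09 (95% interval -0.32 to 0.50, edgeR adjusted p = 0.844) leaves differences of up to 1.42-fold higher and to 0.801 of ctrl within its interval. PSPH has a pseudogene of similar sequence, so that reads of both may have been lost or shared. The ratio of PSAT1 to PHGDH per length was 1.99 and 1.46 in DKO and 1.32 and 0.848 in ctrl, a comparison chosen after the values were seen. The ratios of the clones did not overlap (2-sided exact permutation test, p of 1 in 3, the smallest that 2 against 2 libraries can give).

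None of the mitochondrial one-carbon enzymes passed, and the interval of SHMT2 leaves a rise in DKO of up to 1.59-fold. SHMT2, serine hydroxymethyltransferase, which splits serine into glycine and a one-carbon unit on folate (chromosome 12, 57229327 to 57234935), had 244 and 303 CPM in DKO and 222 and 242 CPM in ctrl. Both DKO libraries were above both ctrl libraries, the lower DKO library only just. The log2 fold change was 0.25 (SE 0.20, 95% interval -0.18 to 0.67, edgeR adjusted p = 0.530). MTHFD2, which oxidises the folate-bound unit further (chromosome 2, 74198562 to 74217565), had 97.3 and 112 CPM in DKO and 105 and 101 CPM in ctrl. The ctrl values lay between the DKO values, and the log2 fold change was 0.03 (SE 0.19, 95% interval -0.37 to 0.44, edgeR adjusted p = 0.944). In this gene, which holds a TATTTAT match, the interval therefore leaves a rise in DKO of up to 1.36-fold. ALDH1L2, which oxidises formyl-folate to carbon dioxide (chromosome 12, 105019784 to 105084577), had 27 and 41 counts in DKO and 28 and 25 in ctrl, or 2.63 and 2.5 CPM in DKO and 2.89 and 2.00 CPM in ctrl. Its log2 fold change of 0.09 had the widest interval among the 9 tested enzymes, -0.67 to 0.86 (edgeR adjusted p = 0.919). C12orf45 on the opposite strand shares 145 exonic bases with ALDH1L2 and had 442 to 519 counts, and the sources used here do not say if the counting used the strand. The genes opposite MTHFD2 (SLC4A5 and AC006030.1) had 0 to 3 counts.

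The proline branch lay below ctrl by amounts within the error. ALDH18A1 encodes the enzyme that reduces glutamate to the precursor of proline and ornithine (chromosome 10, 95605929 to 95656706), and had 244 and 264 CPM in DKO and 293 and 328 CPM in ctrl. Both DKO libraries were below both ctrl libraries, with a log2 fold change of -0.28 (SE 0.19, 95% interval -0.70 to 0.13, edgeR adjusted p = 0.449). This is the other enzyme with a TATTTAT match, and its interval leaves a rise in DKO of up to 1.10-fold. PYCR1, which makes proline in the last step in mitochondria (chromosome 17, 81932384 to 81942412), had 95.9 and 123 CPM in DKO and 112 and 139 CPM in ctrl. Its libraries overlapped, library 2 being the higher in both clones, and the log2 fold change was -0.18 (SE 0.21, 95% interval -0.63 to 0.27, edgeR adjusted p = 0.684), with 0.01 without ctrl replicate 2.

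PCK2, the mitochondrial phosphoenolpyruvate carboxykinase, feeds carbon from the citric acid cycle towards serine and glucose (chromosome 14, 24094053 to 24110598). It had 20.4 and 29 CPM in DKO and 28.1 and 37.2 CPM in ctrl. The lower ctrl library lay below the higher DKO library, so the clones overlapped, although within each replicate number DKO was the lower. The log2 fold change of -0.39 (SE 0.24, 95% interval -0.90 to 0.13, edgeR adjusted p = 0.394) was the lowest of the set. It was -0.69 without DKO replicate 2 and -0.13 without ctrl replicate 2.

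**Figure D2:**
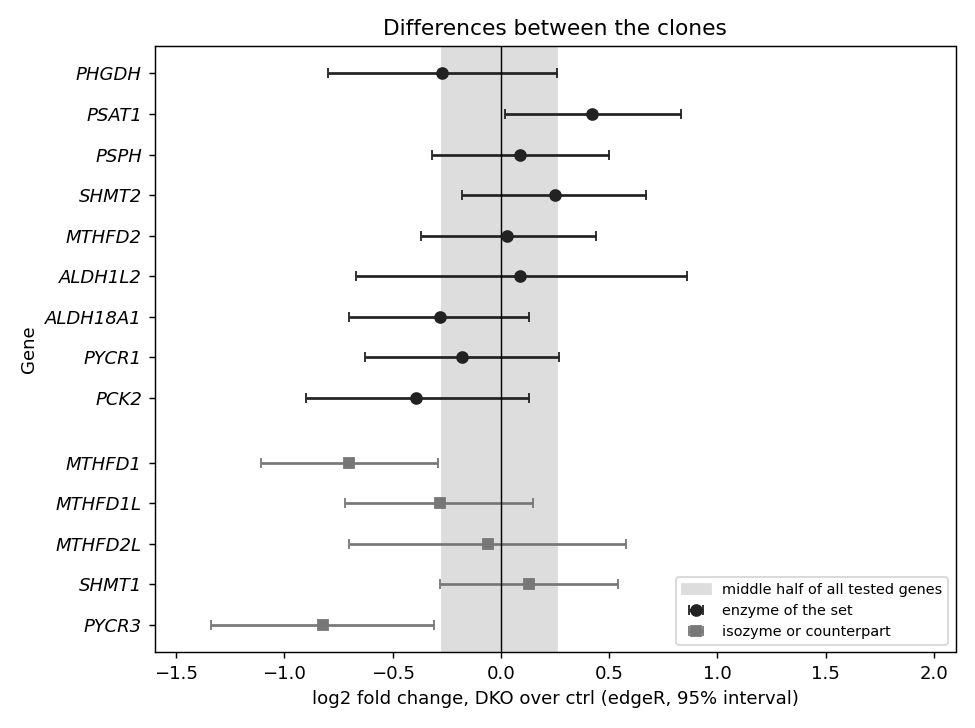
Log2 fold change, DKO over ctrl, of the 9 tested enzymes (circles) and of 5 isozymes or counterparts (squares), with 95% intervals from the edgeR fit; the shaded band spans the first to the third quartile of all tested genes, -0.27 to 0.26. All intervals of the enzymes but 1 include 0, that of PSAT1 runs from 0.02 to 0.83 before adjustment, and the intervals of MTHFD1 and PYCR3 lie below 0.

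Per length of the mRNA, the 9 tested enzymes ranged from 0.805 to 241 on the scale of TPM. TPM are counts divided by length, here of the longest principal transcript, and scaled to the same total as CPM, and the values given are means over all 4 libraries. SHMT2 (241 TPM), PSAT1 (239 TPM), ALDH18A1 (204 TPM) and PHGDH (181 TPM) led, and each of them overlapped its neighbour in the order in its range over libraries, as did PHGDH and PYCR1 (149.6 TPM), with PHGDH above PYCR1 in all 4 libraries. PSPH (88.1 TPM), MTHFD2 (56.5 TPM) and PCK2 (29.5 TPM) followed, each separated from the next by ranges that did not overlap. ALDH1L2 stood at 0.805 TPM, higher than 2.77% of tested genes, whereas PSAT1 was higher than 94.9% of them. With the union of all exons as length, PHGDH took rank 7 and PSAT1 rank 1, since the exons annotated for PHGDH add up to 9217 bases against 2585 in its principal transcript.

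For 4 of the enzymes, the mRNA exceeded that of the direct isozymes in all 4 libraries. SHMT2 formed 79.2% and 80.1% of SHMT2 plus its cytosolic form SHMT1 in DKO and 77.7% and 79.1% in ctrl, per length. MTHFD2 formed 92.6% and 91.8% of the sum with MTHFD2L, a mitochondrial paralogue, in DKO and 90.8% and 92.4% in ctrl. The mean shares of DKO minus ctrl differed by 1.33 and 0.616 percentage points. For PCK2 and ALDH1L2 the other form was at or near 0. PCK1, the cytosolic carboxykinase known for its place in hepatic glucose production, had 0 and 0 counts in DKO and 1 and 0 counts in ctrl. ALDH1L1, the cytosolic form of ALDH1L2 and abundant in normal liver, had 0 and 1 counts in DKO and 0 and 0 counts in ctrl. A count of 0 allows up to 0.310 CPM in the shallowest library.

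The isozyme list held the only gene of the surrounding pathways that passed. MTHFD1, the cytosolic enzyme that carries 3 activities of folate interconversion, fell to 61.7 and 67.6 CPM in DKO, against 107 and 105 CPM in ctrl. The means were 64.7 ± 4.17 CPM in DKO and 106 ± 0.900 CPM in ctrl (SD, n = 2 each), with a log2 fold change of -0.70 (SE 0.19, 95% interval -1.11 to -0.29, edgeR adjusted p = 0.0452). The call was lost without DKO replicate 1 (-0.62, edgeR adjusted p = 0.575) and without DKO replicate 2 (-0.79, edgeR adjusted p = 0.338), fits in which the lone DKO library is assumed to vary like the ctrl libraries. The call was also lost with ERCC totals (-1.40, edgeR adjusted p = 0.139), and DESeq2 and limma-voom made it. MTHFD2 set against MTHFD1 made up 52.6% and 53.8% of their sum in DKO and 40.9% and 40.3% in ctrl. The shares of the clones differed by 12.6 percentage points and did not overlap (exact permutation test, p of 1 in 3). MTHFD1L, the mitochondrial enzyme that releases formate, had 71.8 and 83.7 CPM in DKO and 84.2 and 106 CPM in ctrl (log2 fold change -0.28, edgeR adjusted p = 0.473).

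PYCR3, a cytosolic enzyme that makes proline, had 11.4 and 16.7 CPM in DKO and 24.5 and 26.0 CPM in ctrl. The difference of -0.82 log2 units (SE 0.24) missed the threshold (edgeR adjusted p = 0.0614). In the fits without 1 library it ranged from -1.16 to -0.57. The 50 nearest tested genes around PYCR3 on chromosome 8 had a median of -0.84, as low as the gene itself, and those around MTHFD1 a median of -0.07. SHMT1 (0.13) and MTHFD2L (-0.06) had intervals of -0.28 to 0.54 and -0.70 to 0.58. In the isozyme list 1 of 6 tested genes fell, 0 rose and 5 did not pass, with a median of -0.17. Of all tested genes 5.37% passed in either direction.

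**Figure D3:**
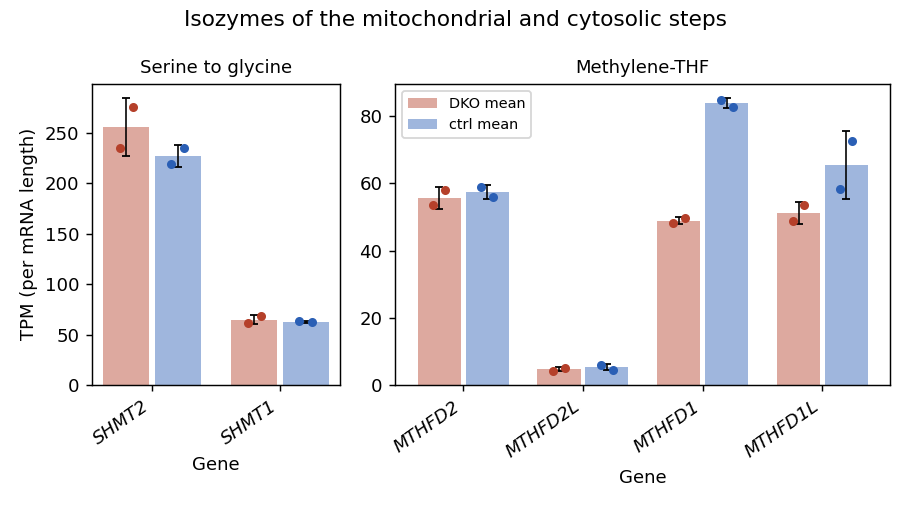
TPM of the isozymes of 2 steps in DKO (red) and ctrl (blue); bars are means of 2 libraries, points the libraries and error bars the SD, on axes that start at 0. MTHFD1 is lower in both DKO libraries while the MTHFD2 points of the clones overlap, and SHMT2 exceeds SHMT1 in all libraries.

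The surrounding pathways were described by 7 lists of 84 genes, among them the isozymes and the regulators. Of the 84 genes 74 were tested and 1 passed, MTHFD1, where 5.37% of all tested genes did. The median of the 74 was -0.06, beside 0.00 for all tested genes. DESeq2 and limma-voom also called MTHFD1 alone. An unadjusted edgeR p under 0.05 was found for 14 of the 74, against 20.2% of all tested genes, 5 of them higher and 9 lower in DKO. Without the filter on low counts 6 of 82 passed, beside 1194 of 22155 genes in that fit. These were GATM, MTHFS, PPP1R15A and TRIB3, higher in DKO, and MTHFD1 and PYCR3, lower in DKO. With trends over GC content and length removed 11 of 74 passed, beside 2048 of 13359 genes. Of these, GATM, PPP1R15A and TRIB3 were higher and BHMT2, MTHFD1, MTRR, MYC, PAICS, PPAT, PYCR3 and SESN2 lower.

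Among 16 tested genes of the folate cycle and its uses, 12 had negative values, beside 6660 of 13359 tested genes. None passed, where 5.37% of all tested genes did, and the median was -0.23. Both DKO libraries lay below both ctrl libraries for 9 of the 16, where 26.2% of all tested genes did so. The lowest adjusted p was that of MTHFS, which recycles formyl-folate, with 8.18 and 9.01 CPM in DKO and 4.13 and 5.28 CPM in ctrl (0.87, edgeR adjusted p = 0.0845). In the fits without 1 library its value ranged from 0.68 to 1.10. Of 11 genes of glycine and serine use none passed (median -0.08). GATM, which turns glycine into the creatine precursor, led with 52.6 and 42.2 CPM in DKO and 34.0 and 22 CPM in ctrl (0.78, edgeR adjusted p = 0.0605). Its value ranged from 0.51 to 1.08 without 1 library.

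Of 9 genes of the methionine cycle and transsulfuration none passed (median 0.27). BHMT2, a homocysteine methyltransferase, had 46.1 and 46.1 CPM in DKO and 69.0 and 77.6 CPM in ctrl (-0.66, edgeR adjusted p = 0.0607). Its value ranged from -0.78 to -0.54 without 1 library. Of 8 genes of proline, ornithine and glutamate metabolism none passed (median -0.08). PRODH, which starts the breakdown of proline, had 2.53 and 2.98 CPM in DKO and 3.82 and 5.84 CPM in ctrl (-0.80, edgeR adjusted p = 0.194). Its value ranged from -1.09 to -0.42 without 1 library. Of 8 genes of aspartate, asparagine and alanine metabolism none passed (median -0.06), and the lowest adjusted p was that of ASL, argininosuccinate lyase, with 74.3 and 90.4 CPM in DKO and 88.0 and 122 CPM in ctrl (-0.35, edgeR adjusted p = 0.403).

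**Figure D4:**
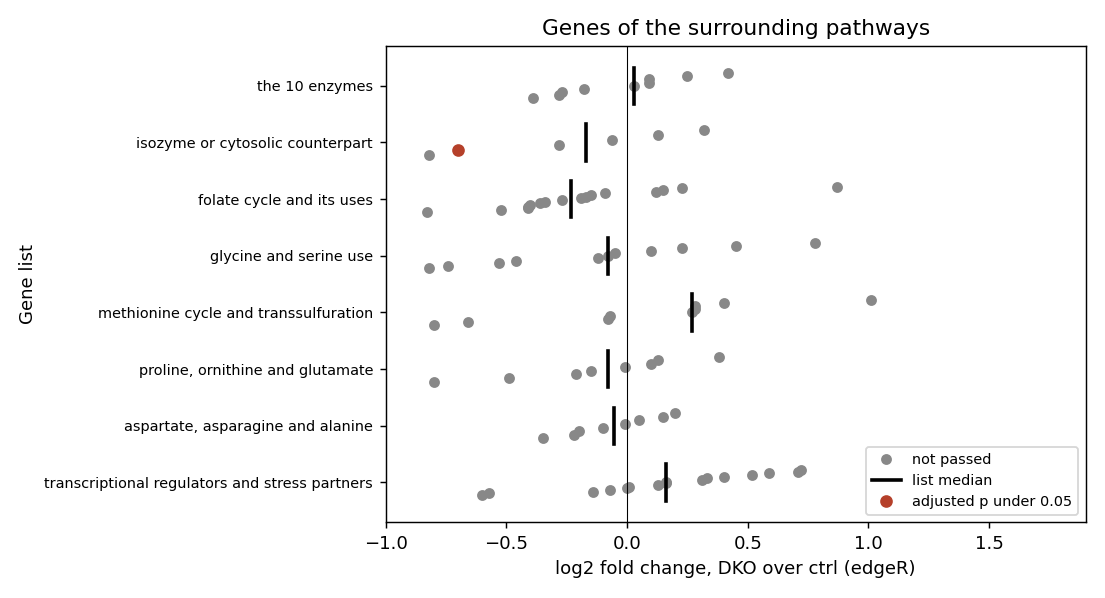
Log2 fold change, DKO over ctrl, of each tested gene of the 10 enzymes and of the 7 surrounding lists; points are genes, red marks an edgeR adjusted p under 0.05 and black bars are list medians. The enzymes lie between -0.39 and 0.42, a narrower range than in the folate list (-0.83 to 0.87). It is a wider range than in the aspartate, asparagine and alanine list (-0.35 to 0.20). The red point is MTHFD1.

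The regulators upstream of the enzymes and their stress partners did not pass either, although some of them did in alternative fits. ATF4 mRNA had 228 and 269 CPM in DKO and 182 and 312 CPM in ctrl, with both DKO values between the ctrl values and a log2 fold change of 0.01 (SE 0.24, 95% interval -0.51 to 0.53, edgeR adjusted p = 0.984). It was -0.35 without ctrl replicate 1 and 0.49 without ctrl replicate 2. ATF4 is controlled mainly in translation, which these counts do not measure. Its partners CEBPB (0.16) and CEBPG (-0.07), which bind DNA with ATF4, had edgeR adjusted p = 0.776 and 0.888. DDIT3, TRIB3 and PPP1R15A had both DKO libraries above both ctrl libraries, as 23.7% of all tested genes did. DDIT3, which encodes the stress factor CHOP, had 10.1 and 8.34 CPM in DKO and 6.09 and 6.72 CPM in ctrl (0.52, edgeR adjusted p = 0.279), with a neighbour median of 0.31. TRIB3, a pseudokinase induced by ATF4 and CHOP, had 112 and 162 CPM in DKO and 67.2 and 99.8 CPM in ctrl (0.72, edgeR adjusted p = 0.101). PPP1R15A had 109.7 and 147 CPM in DKO and 65.3 and 92.3 CPM in ctrl (0.71, edgeR adjusted p = 0.0851). In the fits without 1 library the value ranged from 0.40 to 1.07 for TRIB3 and from 0.46 to 1.02 for PPP1R15A. DESeq2 and limma-voom called neither. Both passed with trends over GC content and length removed (TRIB3 0.84, edgeR adjusted p = 0.00405, and PPP1R15A 0.78, edgeR adjusted p = 0.00406), where 2048 of 13359 genes did. They also passed without the filter on low counts (edgeR adjusted p = 0.0175 and 0.0197), where 1194 of 22155 genes did. The replicate block called both too, with 30.1% of all tested genes, and it also called PSAT1 and PCK2. No enzyme passed with trends removed or without the filter. With ERCC totals DDIT3 (-0.15), TRIB3 (-0.06) and PPP1R15A (-0.05) had negative values, above the median gene of that scaling. Of 16 tested regulators and stress partners 12 had positive values, beside 6699 of 13359 tested genes, with a median of 0.16. An unadjusted edgeR p under 0.05 was found for 2 higher and 2 lower ones, against 20.2% of all tested genes in either direction. The 2 lower ones were MYC and SESN2, named after their values were seen. MYC, a growth-promoting transcription factor, had 61.6 and 68.8 CPM in DKO and 87.4 and 111 CPM in ctrl (-0.60, edgeR adjusted p = 0.107). SESN2, a stress-induced inhibitor of mTORC1 signalling, had 24.9 and 28.0 CPM in DKO and 33.5 and 45.7 CPM in ctrl (-0.57, edgeR adjusted p = 0.155). Whether the enzymes differ from these genes in their response was not tested.

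SHMT2, PCK2 and PYCR1 lie among genes whose median was farthest from 0, in each case on the same side as the enzyme. The 50 tested genes closest to SHMT2 had a median of 0.37, a value that 1.62% of 11967 tested genes reach or exceed in their own surroundings. Those around PCK2 had a median of -0.40 (2.82% of genes at or below) and those around PYCR1 -0.28 (7.90%). The enzymes themselves stood at 0.25, -0.39 and -0.18. The neighbour medians of the other 7 lay between -0.11 (PSAT1) and 0.08 (ALDH1L2), and with 10 genes on each side that of PSAT1 was 0.08 and that of MTHFD2 0.16. PSAT1, with the highest log2 fold change of the set, therefore did not share its direction with the wider surroundings. The part of the neighbourhoods in the values of the enzymes was not tested.

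**Figure D5:**
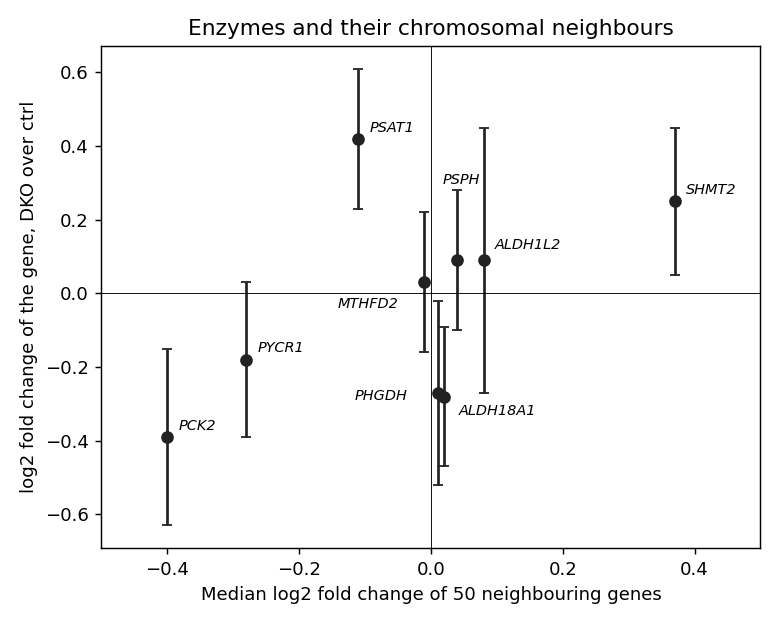
Log2 fold change of each tested enzyme (vertical, with its SE) against the median log2 fold change of the 50 tested genes nearest to it (horizontal), both DKO over ctrl. SHMT2 at the right and PCK2 and PYCR1 at the left lie in shifted surroundings, and PSAT1 stands highest with a neighbour median of -0.11.

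For PHGDH, PYCR1 and PCK2, libraries of the same clone differed by amounts comparable to or above the difference between the clones. Library 2 differed from library 1 by less for PSAT1 (0.15 log2 units in DKO and -0.06 in ctrl, against 0.42 between the clones). The same held for ALDH18A1 (0.11 in DKO and 0.16 in ctrl, against -0.28). Library 2 was higher than library 1 in both clones for 5 of the 9 tested enzymes (PHGDH, SHMT2, ALDH18A1, PYCR1 and PCK2), against 31.0% of all tested genes. Within replicate number 1 and within replicate number 2, the log2 ratio of DKO to ctrl in CPM was 0.30 and 0.51 for PSAT1, 0.13 and 0.32 for SHMT2, and -0.46 and -0.36 for PCK2. It was -0.30 and -0.27 for PHGDH, -0.27 and -0.31 for ALDH18A1, and -0.22 and -0.17 for PYCR1. These 6 kept their sign within both numbers, whereas PSPH, MTHFD2 and ALDH1L2 changed sign. The share of all tested genes that keep their sign was not counted. It is at least the 49.9% with both DKO libraries outside both ctrl libraries, so 6 of 9 is not read as a trait of the enzymes. The labels do not state that a number marks a shared culture or batch. The 10 enzymes together took 0.115% and 0.139% of gene counts in DKO and 0.120% and 0.136% in ctrl, so that the clones overlapped.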

How the data were processed

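The authors deposited 1 table of raw counts of reads per gene symbol for 4 libraries, with no normalization. Per the labels' protocols, ERCC RNA was added to total RNA, ribosomal RNA was depleted, a directional kit was used and 80 bases were read in single-end mode. The submitters' processing notes name hg38, STAR 2.5.3a, featureCounts, Subread 1.6.3 and DESeq2. The sources used here give neither the annotation nor the strand setting nor how reads that match several genes were treated, so genes that overlap or resemble others may lose or share reads.

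Counts were tested in R 4.3.3 with edgeR 4.0.16 (filterByExpr, TMM, quasi-likelihood, group as the term), after 92 ERCC rows were left out, with p adjusted over 13359 genes. The exact permutation tests are 2-sided. Alternatives used DESeq2 1.42.0, limma-voom (limma 3.58.1), RLE factors, no filter, ERCC totals, GC and length trends (mgcv 1.9.3), a replicate block and 3 of 4 libraries. Levels are CPM over gene counts. Gene symbols were matched to GENCODE release 29, and 96.6% of rows matched 1 gene. In 3 simulated data sets of this comparison (13151 to 13172 genes, 200 changed) 66.9% of changes of 1 log2 unit were called and 95.2% of changes of 2, and 4.70% of calls were false. The simulated libraries were drawn independently, whereas deviations of same-numbered libraries in the real data correlated at 0.47. Changes as small as those of the enzymes (-0.39 to 0.42) were not simulated, so these rates do not cover them. Counting intervals cover counting error only, since reads had no molecular identifiers. Libraries of a clone differed beyond sampling noise (chi-square per degree of freedom 27.1 in DKO and 33.6 in ctrl). The enzymes and lists were chosen with earlier results of these data known. All 10 enzymes are named, the isozymes (except 1 that is not reported here), 6 regulators, and of each list the genes past the threshold or else the one with the lowest adjusted p.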

Additional observations from a re-analysis of the deposited data

How the results depend on the processing

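The number of genes passing was 718 in all, and 1194 without a filter, 329 with ERCC totals, 4021 with the replicate number as a block, 2048 with GC and length trends removed and 218 to 2172 in the fits without 1 library. For the enzymes it stayed at 0 in these and in all other alternatives but the block, and 1 had an unadjusted p under 0.05, a threshold added after the data were seen. For the 7 pathway lists it was 1, and 6 without a filter, 0 with ERCC totals, 23 with the block, 11 with trends removed, 0 to 10 without 1 library and 14 at an unadjusted p under 0.05. With the block, 2 enzymes passed, PSAT1 (0.42, edgeR adjusted p = 0.00360) and PCK2 (-0.39, edgeR adjusted p = 0.0304), where 30.1% of all tested genes did. Deviations of same-numbered libraries correlated at 0.47 over genes, but with 2 numbers and no label that pairs them the block is an alternative only. With ERCC totals the log2 fold change turned negative for PSAT1 (-0.27), PSPH (-0.60), SHMT2 (-0.48), MTHFD2 (-0.66), ALDH1L2 (-0.56), ATF4 (-0.76), DDIT3 (-0.15), TRIB3 (-0.06), CEBPB (-0.62), PPP1R15A (-0.05), ZFP36 (-0.17) and ZFP36L1 (-0.50), none of them past the threshold in that fit, and with trends removed it turned negative for MTHFD2 (-0.06), which did not pass. In the fits without 1 library the sign varied for PHGDH (-0.63 to 0.08), PSPH (-0.04 to 0.22), MTHFD2 (-0.09 to 0.15), ALDH1L2 (-0.14 to 0.33), PYCR1 (-0.40 to 0.01), ATF4 (-0.35 to 0.49), CEBPB (-0.19 to 0.63) and ZFP36L1 (-0.01 to 0.26). The causes of these differences were not tested. ALDH1L2 and ASNS rest on few counts, and differences between the clones in them were not detectable at this depth.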
